A study of Homo sapiens with 14 samples.

Results

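The 34 genes described here act in the Fanconi anaemia and homologous recombination pathways. They were chosen by gene symbol from a list of pathway members, and all 34 had a row among the 16405 genes of a knockdown table and among the 12325 genes of a compound table. Both tables hold RNA-seq counts from Kasumi-1, an acute myeloid leukaemia cell line grown from peripheral blood that carries the RUNX1-RUNX1T1 fusion. In the knockdown experiment, cells received a lentivirus with an shRNA against RBPMS (shRBPMS, n = 3) or a control shRNA (shCtrl, n = 3), with 48 h of infection followed by 48 h of puromycin selection in both groups. RBPMS encodes an RNA-binding protein. In the compound experiment, cells received RB98# (n = 2), a compound for which the labels give a code alone, or DMSO (n = 2). The labels give no dose and no time for RB98#. The labels do not say how many hairpins were used against RBPMS, nor whether replicates were separate cultures, so the spread behind a p-value may be technical. The series has 14 samples, and the 4 that come from RIP-seq and m6A-seq were not analysed here.

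The Fanconi pathway repairs DNA strands that are linked to each other. Its core complex, a set of proteins around the ligase FANCL and its partner enzyme UBE2T, attaches ubiquitin to FANCD2 and FANCI when a replication fork meets such a crosslink, and nucleases then cut the crosslink out. The resulting break is resected and, with the help of BRCA2 and its partners, rejoined by homologous recombination, while the kinases ATM, ATR, CHEK1 and CHEK2 hold the cell cycle. Leukaemic cells in S phase use these genes at every division, and transcripts of many of them rise and fall with replication.

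Library totals were 25.2 to 27.7 M counts for shRBPMS (1 M is 1e6), 24.0 to 34.4 M for shCtrl, 13.9 to 15.2 M for RB98# and 14.2 to 15.3 M for DMSO. The descriptions divide the knockdown libraries into replicate 1 of each group (label set 1) and replicates 2 and 3 (label set 2). The labels do not say what the sets mean. Mitochondrial transcripts held 13.2% of shRBPMS and 15.2% of shCtrl counts in set 1, and 6.20% to 6.95% in set 2. Within a group, replicates 2 and 3 were far closer to each other than to replicate 1. In shRBPMS the chi-square per degree of freedom was 3.03 between replicates 2 and 3 and 133 between replicates 1 and 2, and in shCtrl replicates 1 and 2 gave 194.5. Knockdown results are therefore given from a fit of group alone and from one that also takes the replicate number as a block (the blocked fit), with the difference inside each set for the members described in full. In one more fit, chosen after the data were seen, replicates 2 and 3 were summed into 1 library per group and the label set was a covariate (the summed fit). In the compound experiment the chi-square per degree of freedom was 4.90 between the RB98# libraries and 2.24 between the DMSO libraries. Those pairs were thus also close, and leaving out 1 library cannot show whether a call would hold in separate cultures. All 8 myeloblast markers had a row in both tables, and no erythroid or stromal marker had one. After knockdown 2 of these 8 rose in the fit of group alone, CD33 (log2 1.71, adjusted p = 0.0246) and ANPEP (log2 1.79, adjusted p = 0.0385), and in the blocked fit 2 rose and 2 fell, RUNX1T1 among them (log2 -0.68, adjusted p = 0.00535). With RB98#, 4 of the 8 rose and 3 fell. Over all genes, 0.629% rose and 1.34% fell in the fit of group alone. The blocked fit called 13.3% higher and 14.8% lower, and with RB98# 20.5% rose and 17.3% fell. Their summed level was between 16450 and 18240 CPM in shRBPMS and between 15050 and 19110 CPM in shCtrl, and 16950 and 17950 CPM with RB98# and 15370 and 15280 CPM with DMSO. The 5 lymphoid markers listed in the knockdown table summed to between 6.39 and 7.48 CPM in shRBPMS and between 14.1 and 14.5 CPM in shCtrl, and the 2 monocyte markers listed there summed to between 5.92 and 7.20 CPM in shRBPMS and between 3.89 and 5.70 CPM in shCtrl. The 3 lymphoid markers of the RB98# table summed to 5.53 and 6.496 CPM with RB98# and to 5.60 and 4.89 CPM with DMSO, and the 3 monocyte markers to 33.6 and 36.6 CPM with RB98# and to 30.7 and 28.1 CPM with DMSO. Of the 5 lymphoid markers after knockdown, the fit of group alone called 0 higher and 2 lower. These were CD3D (log2 -1.91, adjusted p = 0.0222) and CD3E (log2 -3.08, adjusted p = 0.0335). CD3E averaged only 1.31 CPM in shCtrl. The part of all these markers in the results was not tested. Levels are in CPM, counts per 1e6 counts scaled with TMM factors, unless another unit is given.

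RBPMS itself stood at 2.53, 3.34 and 3.08 CPM in shRBPMS libraries and at 20.4, 7.24 and 7.39 CPM in shCtrl libraries. All 3 shRBPMS libraries lay below all 3 shCtrl libraries, and shCtrl replicate 1 stood far above the other controls. The log2 fold change was -1.96 in the fit of group alone (edgeR adjusted p = 0.0846) and -1.79 in the blocked fit (adjusted p = 0.0106). Inside the label sets the difference was -3.01 in set 1 and -1.19 in set 2, so the values of both fits exceed the drop in set 2. With RB98#, RBPMS stood at 6.62 and 8.06 CPM, against 7.17 and 6.40 CPM with DMSO, and was not called (log2 0.11, adjusted p = 0.678).

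After RBPMS knockdown the mean level of most pathway genes was lower, and CHEK1 showed the largest drop among them. In the fit of group alone, 0 of 34 members rose and 1, CHEK1, fell, where 0.629% of all 16215 tested genes rose and 1.34% fell. At an unadjusted p under 0.05 that fit held 2 higher and 9 lower members, where 7.43% and 9.43% of all genes lay. DESeq2 with group alone called 2 higher and 3 lower, where it called 3.18% and 5.08% of all genes. In the blocked fit 3 members rose (RAD50, SLX4 and NBN) and 15 fell, where 13.3% of all genes rose and 14.8% fell. The summed fit called 2 members higher and 6 lower, where it called 7.73% and 8.62% of all genes. It lost NBN among those that rose, and FANCL, UBE2T, BARD1, BRCA2, BRIP1, RAD51D, XRCC2, MRE11 and EXO1 among those that fell. The mean was lower in shRBPMS for 24 of 34 members, with a median log2 fold change of -0.20, against 0.02 for all genes, of which 48% were lower. The groups did not overlap for 3 members higher in shRBPMS and 8 lower ones, where 12.3% and 13.6% of all genes stood apart in the same way. In bulk RNA, fewer cells of a cycle stage and less RNA per cell cannot be told apart. The summed level of the 34 members was 1470, 1273 and 1276 CPM in shRBPMS libraries and 1687, 1447 and 1445 CPM in shCtrl libraries, so that each shRBPMS library stood below the shCtrl library of its own label set.

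With RB98#, 23 of 34 members were not called. A further 4 members rose (BRCA2, BARD1, ATM and CHEK1) and 7 fell (RAD51D, FANCF, PALB2, BRCA1, FANCG, RAD50 and RAD51C), where 20.5% of all 12324 tested genes rose and 17.3% fell. The mean was lower with RB98# for 22 of 34 members, where 50% of all genes were lower. The median log2 fold change of the members was -0.07, against 0.00 for all genes. Groups of 2 libraries stood apart without overlap for 5 higher and 17 lower members, where 34.3% and 34% of all genes did so.

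Over both experiments, 5 members were called in the blocked knockdown fit and with RB98#. RAD51D fell in both. BARD1, BRCA2 and CHEK1 fell in the blocked fit and rose with RB98#, and RAD50 rose in the blocked fit and fell with RB98#. Of these 5, the summed fit kept the knockdown calls of CHEK1 and RAD50 and lost those of RAD51D, BARD1 and BRCA2. A further 13 members were called in the blocked fit and not with RB98#. Another 6 were called with RB98# and not in the blocked fit. The other 10 were called in neither (FANCA, FANCC, FANCE, FANCM, FAN1, RAD51B, XRCC3, RBBP8, ATR and CHEK2). Single calls covered 13.3% (higher) and 14.8% (lower) of tested genes with the block, and 20.5% and 17.3% with RB98#. Joint patterns were not counted over all genes, so this tally cannot show whether members shared calls more often than other genes. The experiments share no libraries, and the difference of both effects was tested directly. In the fit of group alone it was called for 2 members higher with RB98# (CHEK1 and BARD1) and 3 lower (RAD50, FANCF and SLX4), where 4.79% and 3.36% of 12126 genes were called. The blocked fit called 8 higher and 6 lower members, where 18.9% and 18.2% of all genes were called.

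**Figure D1:**
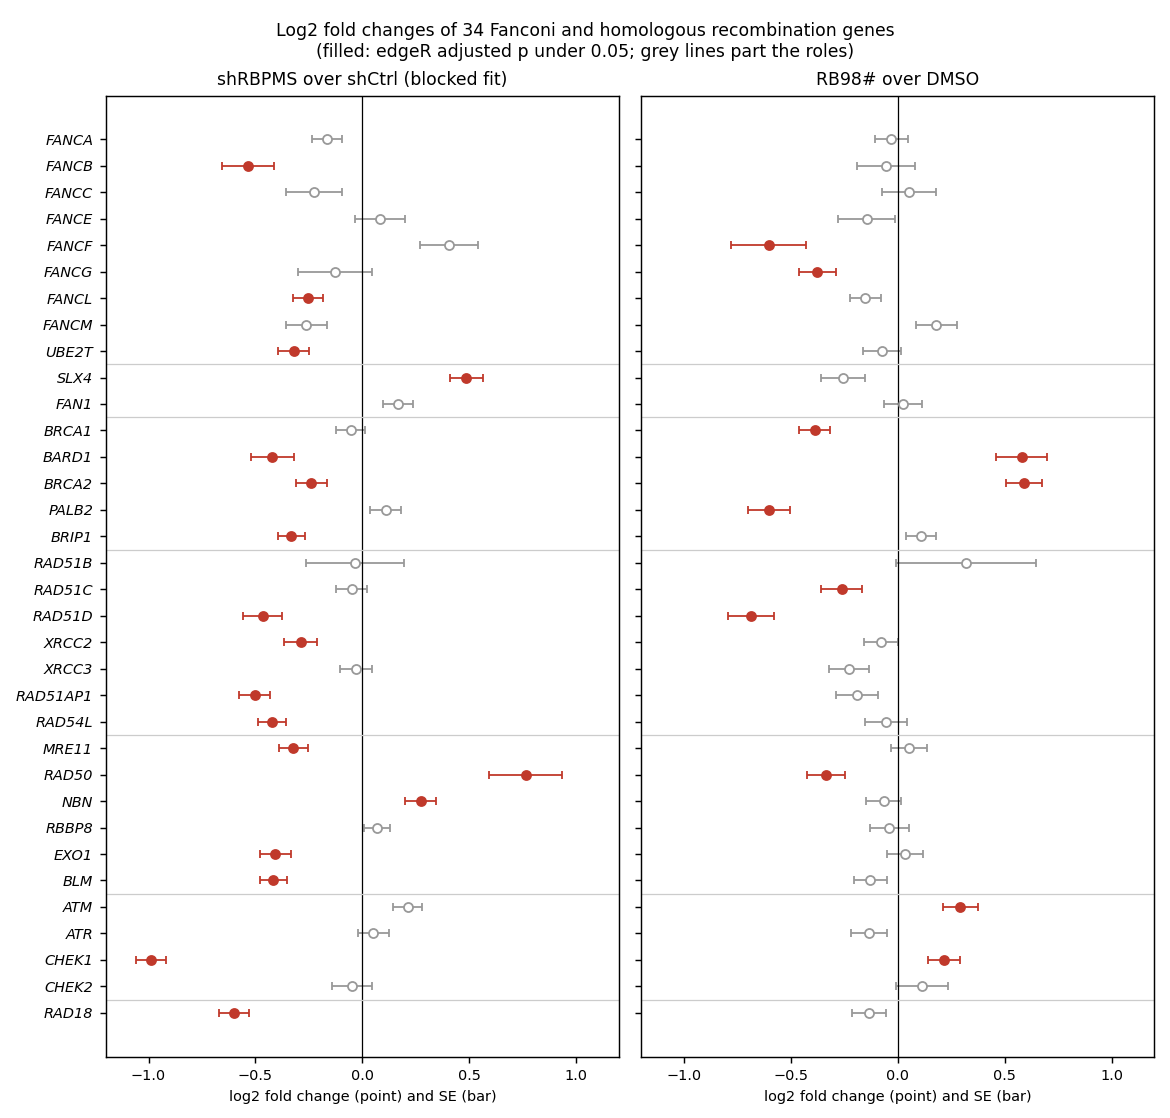
Log2 fold change (point) and standard error (bar) of each of the 34 members, for shRBPMS over shCtrl in the blocked fit (left) and RB98# over DMSO (right), with grey lines between roles; filled red points have an edgeR adjusted p under 0.05. CHEK1 lies farthest left in the knockdown panel at -0.99 and right of 0 in the RB98# panel at 0.22, while RAD51D lies left of 0 in both.

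The promoters of the 4 members that fell in the blocked knockdown fit and were also called with RB98# are shown because CHEK1, BARD1 and BRCA2 moved in opposite directions in the 2 experiments and RAD51D did not. Each is the 250 bases before the gene start in RefSeq (GRCh38.p14), read 5′ to 3′ on the gene's own strand, at chr11:125625979-125626228 on the plus strand, chr2:214809684-214809933 on the minus strand, chr13:32315258-32315507 on the plus strand and chr17:35119759-35120008 on the minus strand. Capitals mark a CCAAT box, here in its reverse form ATTGG.
CHEK1: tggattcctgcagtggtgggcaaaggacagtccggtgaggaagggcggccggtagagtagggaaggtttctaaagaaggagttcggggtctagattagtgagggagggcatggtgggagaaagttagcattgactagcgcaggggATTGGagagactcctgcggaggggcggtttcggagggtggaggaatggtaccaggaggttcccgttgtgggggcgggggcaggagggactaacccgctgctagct
BARD1: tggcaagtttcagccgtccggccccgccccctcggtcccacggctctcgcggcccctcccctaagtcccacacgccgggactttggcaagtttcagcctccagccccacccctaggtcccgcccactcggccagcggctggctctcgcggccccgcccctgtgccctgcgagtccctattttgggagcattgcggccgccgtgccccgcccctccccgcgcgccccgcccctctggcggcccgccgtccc
BRCA2: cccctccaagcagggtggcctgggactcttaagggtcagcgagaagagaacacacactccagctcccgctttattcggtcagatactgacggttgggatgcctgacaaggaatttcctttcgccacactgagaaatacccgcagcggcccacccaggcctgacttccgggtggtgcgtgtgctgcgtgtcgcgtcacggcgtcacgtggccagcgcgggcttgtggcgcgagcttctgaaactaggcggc
RAD51D: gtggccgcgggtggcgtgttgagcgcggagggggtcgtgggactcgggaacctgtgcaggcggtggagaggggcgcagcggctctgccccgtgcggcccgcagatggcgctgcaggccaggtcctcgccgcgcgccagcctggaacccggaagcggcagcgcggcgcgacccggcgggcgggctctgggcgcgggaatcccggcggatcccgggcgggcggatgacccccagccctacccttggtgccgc
CHEK1 held 1 CCAAT box, 105 bases before the start, and the other 3 promoters held none. None of the 4 held TTTGAA (part of the CHR element of cell cycle genes), TTTCGCGC or TTTGGCGC (E2F site forms) or GGAAGTG (an ETS site form) on either strand. Only these exact strings were searched, so other forms of E2F and ETS sites may be present. Over the 33 members with a promoter in the table, 15 (45.5%) held CCAAT, against 37.0% of 27305 promoters. For TTTGAA the shares were 4 of 33 members (12.1%) and 16.1% of promoters. TTTCGCGC was found in 1 member (3.03%), FANCC, and in 0.542% of promoters. TTTGGCGC was found in 0 members and 0.681% of promoters. GGAAGTG was found in 3 members (9.09%) and 11.2% of promoters. The median GC content was 64.4% in member promoters and 58.0% in all promoters. None of the 5 motifs contains another. These matches describe letters in a window and no binding was measured. GENCODE 29 places the first base of these gene models away from the RefSeq start. The whole CHEK1 and RAD51D windows lie inside the GENCODE genes, and the BARD1 and BRCA2 windows overlap theirs.

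The checkpoint kinases held the largest single change. CHEK1 (chr11:125625136-125676255 on the plus strand, GRCh38, GENCODE 29) encodes the kinase that ATR activates at stalled forks. It stood at 45.5, 49.0 and 50.2 CPM in shRBPMS libraries and at 99.3, 93.5 and 94.6 CPM in shCtrl libraries. All shRBPMS libraries were far below every control, and both groups were tight. The log2 fold change was -0.99 (SE 0.11, adjusted p = 0.0230 in the fit of group alone; SE 0.07, adjusted p = 0.000458 in the blocked fit), with -1.13 inside set 1 and -0.92 inside set 2. Without any 1 of shCtrl replicates 2 and 3 and shRBPMS replicates 1, 2 and 3, the adjusted p of the fit of group alone ranged from 0.0542 to 0.157, while the log2 fold change ranged from -1.04 to -0.95. The authors' deposited table gave CHEK1 a log2 fold change of -0.97 with an adjusted p of 6.32e-08. With RB98#, CHEK1 stood at 97.4 and 87.8 CPM, against 79.5 and 79.9 CPM with DMSO. Both RB98# libraries lay above both DMSO libraries by a small step (log2 0.22, SE 0.07, adjusted p = 0.0239). That call was lost with DESeq2 (adjusted p = 0.0818), with library totals in place of TMM factors (0.221), and without DMSO replicate 1 (0.192), DMSO replicate 2 (0.191) or RB98# replicate 1 (0.144). The difference of both effects was 1.19 (SE 0.15, adjusted p = 0.00507 in the fit of group alone, 0.000191 in the blocked fit).

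ATM, the kinase that answers double-strand breaks, stood at 68.8 and 69.8 CPM with RB98# and at 58.4 and 54.8 CPM with DMSO. Both RB98# libraries were above both DMSO libraries. ATM rose by a log2 fold change of 0.29 (SE 0.08, adjusted p = 0.00532). The call was lost with library totals (adjusted p = 0.0576) and without DMSO replicate 2 (0.161). After knockdown ATM averaged 90.6 ± 7.42 CPM in shRBPMS and 78.8 ± 13.1 CPM in shCtrl (SD, n = 3 each) and did not pass the test (blocked log2 0.21, adjusted p = 0.0603). ATR, the kinase of stalled forks, and CHEK2, the kinase downstream of ATM, were called in neither experiment. ATR averaged 61.0 CPM in shRBPMS and 59.4 CPM in shCtrl, and 54.1 CPM with RB98# and 59.3 CPM with DMSO. For CHEK2 the means were 26.7 CPM in shRBPMS and 27.8 CPM in shCtrl, and 25.1 CPM with RB98# and 23.2 CPM with DMSO. Of the 4 kinases, then, CHEK1 alone was called after knockdown and 2 rose with RB98#. Over all genes, 14.8% fell in the blocked fit and 20.5% rose with RB98#.

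Among BRCA1, BRCA2 and their partners, 3 of 5 fell in the blocked knockdown fit, and with RB98# 2 rose and 2 fell. Over all genes, 14.8% fell in the blocked fit, and with RB98# 20.5% rose and 17.3% fell. The 3 knockdown calls, BARD1, BRCA2 and BRIP1, were lost in the summed fit. BARD1 (chr2:214725646-214809711 on the minus strand), the partner of BRCA1 in a ubiquitin ligase, stood at 15.3, 14.5 and 12.8 CPM in shRBPMS libraries and at 20.5, 17.2 and 19.3 CPM in shCtrl libraries. The groups did not overlap. Its log2 fold change was -0.42 (adjusted p = 0.217 in the fit of group alone, 0.0211 in the blocked fit, 0.0681 in the summed fit), with -0.42 inside each set. The blocked call was also lost without replicate 3 of both groups (adjusted p = 0.174). With RB98#, BARD1 stood at 25.4 and 23.5 CPM, against 15.4 and 17.2 CPM with DMSO. RB98# libraries were clearly higher, by a log2 fold change of 0.58 (SE 0.12, adjusted p = 0.000429), and the call held without any 1 library. The difference of both effects was 0.99 (adjusted p = 0.0219 in the fit of group alone, 0.00200 in the blocked fit).

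BRCA2 (chr13:32315474-32400266 on the plus strand), which acts on resected single-stranded DNA, stood at 64.3, 28.6 and 29.1 CPM in shRBPMS libraries and at 70.7, 35.8 and 35.0 CPM in shCtrl libraries. Replicate 1 was far higher than replicates 2 and 3 in both groups, so the groups overlapped, while each shRBPMS library lay below the controls of its own set. The blocked log2 fold change was -0.24 (SE 0.07, adjusted p = 0.0465), against an adjusted p of 0.882 in the fit of group alone and 0.281 in the summed fit, with -0.14 inside set 1 and -0.29 inside set 2. With RB98#, BRCA2 stood at 85.8 and 73.0 CPM, against 52.5 and 53.1 CPM with DMSO. RB98# libraries were well above both controls, by a log2 fold change of 0.59 (SE 0.09, adjusted p = 6.45e-06), and the call held without any 1 library. Between the experiments the difference was 0.81 in the blocked fit (adjusted p = 0.00121) and was not called in the fit of group alone (adjusted p = 0.459).

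PALB2, which joins BRCA1 to BRCA2, went the other way from BRCA2 with RB98#. It stood at 24.6 and 27.1 CPM with RB98# and at 37.8 and 40.5 CPM with DMSO. Both RB98# libraries were below both DMSO libraries, by a log2 fold change of -0.60 (SE 0.10, adjusted p = 3.87e-05), and the call held without any 1 library. After knockdown PALB2 averaged 31.6 ± 9.26 CPM in shRBPMS and 29.3 ± 8.98 CPM in shCtrl (SD, n = 3 each) and was not called. BRCA1, which directs breaks towards recombination, stood at 75.8 and 71.8 CPM with RB98# and at 99.9 and 93.5 CPM with DMSO. Its RB98# libraries were both lower, by a log2 fold change of -0.39 (SE 0.07, adjusted p = 0.000192). After knockdown BRCA1 averaged 84.1 CPM in shRBPMS and 86.3 CPM in shCtrl, with wide overlap, and was not called. BRIP1, a helicase that binds BRCA1, stood at 82.1, 64.0 and 61.9 CPM in shRBPMS libraries and at 109.5, 77.7 and 76.3 CPM in shCtrl libraries. Each shRBPMS library was below the controls of its own set. The blocked log2 fold change was -0.33 (adjusted p = 0.00970; 0.455 in the fit of group alone and 0.0784 in the summed fit), with -0.42 inside set 1 and -0.29 inside set 2. With RB98#, BRIP1 averaged 110.2 CPM, against 102 CPM with DMSO, and was not called. BRCA2, BARD1, BRCA1 and PALB2 thus passed the test with RB98#, the first pair higher and the second lower.

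**Figure D2:**
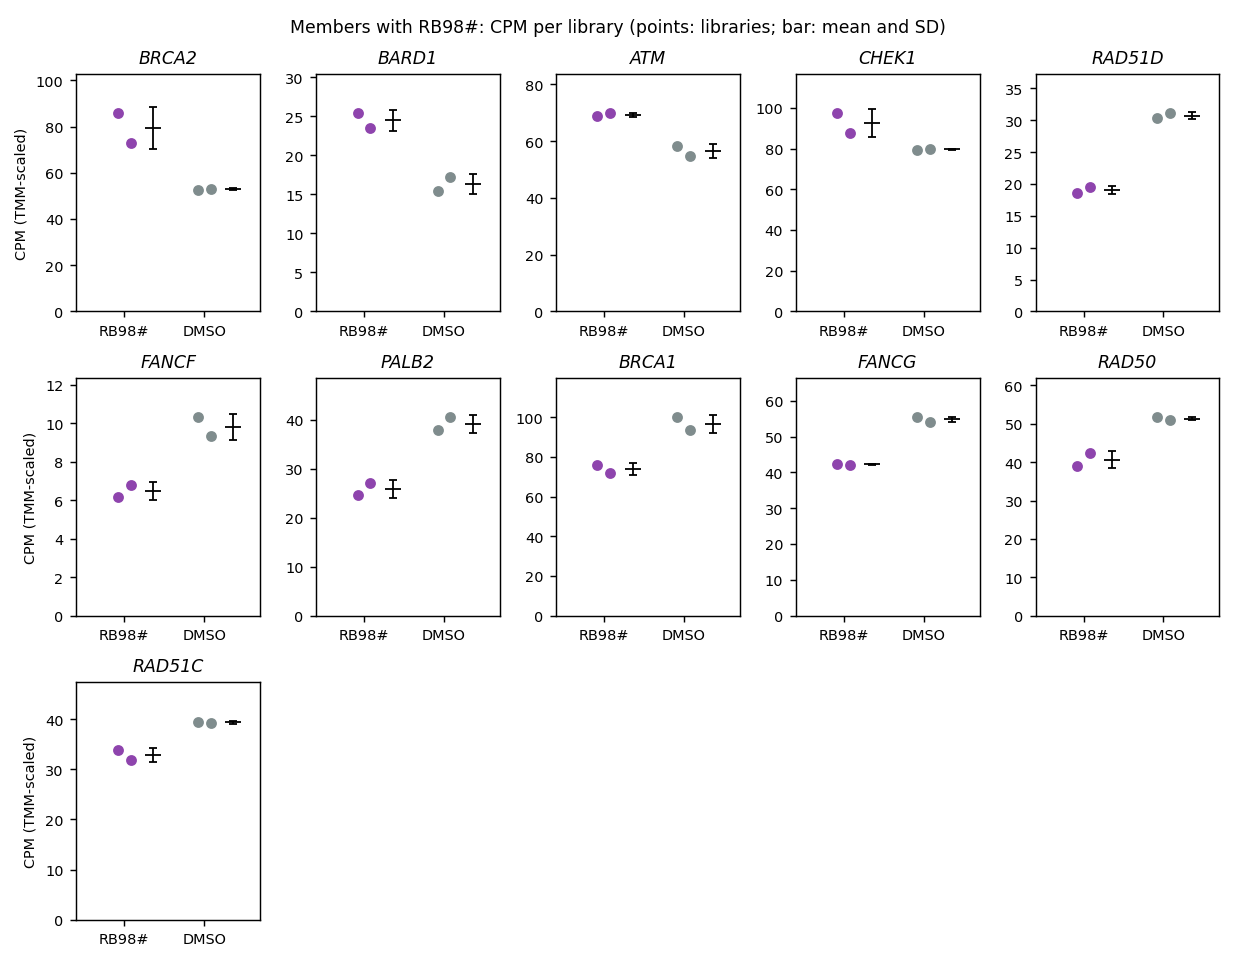
CPM of the 11 members called with RB98#, 1 point per library, RB98# left and DMSO right, with the mean and SD beside the points and a y axis from 0. BRCA2, BARD1, ATM and CHEK1 are higher with RB98#, the other 7 are lower, and the 2 groups overlap in none of the 11.

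RAD51B, RAD51C, RAD51D, XRCC2, XRCC3, RAD51AP1 and RAD54L act in the strand exchange step of recombination, and 4 of these 7 fell in the blocked knockdown fit while 2 fell with RB98#. Over all genes the shares that fell were 14.8% and 17.3%. RAD51D (chr17:35092208-35121522 on the minus strand), a subunit of a complex that acts in homologous recombination, stood at 17.4, 21.1 and 19.6 CPM in shRBPMS libraries and at 20.9, 30.6 and 29.3 CPM in shCtrl libraries. The groups overlapped only through shCtrl replicate 1. Its log2 fold change was -0.47 in the blocked fit (SE 0.09, adjusted p = 0.0110; 0.265 in the fit of group alone), with -0.27 inside set 1 and -0.56 inside set 2. The blocked call was lost in the summed fit (adjusted p = 0.0631) and without replicate 2 or replicate 3 of both groups (0.0600 and 0.0689). With RB98#, RAD51D stood at 18.6 and 19.6 CPM, against 30.4 and 31.1 CPM with DMSO. This was the largest fall of any member with RB98# (log2 -0.69, SE 0.11, adjusted p = 1.85e-05), and it held without any 1 library. Its effects in the 2 experiments were not called different (-0.24, adjusted p = 0.206 in the blocked fit).

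RAD51AP1, which aids strand pairing, stood at 32.5, 33.5 and 33.98 CPM in shRBPMS libraries and at 48.8, 44.4 and 48.7 CPM in shCtrl libraries. The groups stood well apart. It fell by 0.50 on the log2 scale (adjusted p = 0.00359 in the blocked fit, 0.0857 in the fit of group alone), with -0.59 inside set 1 and -0.46 inside set 2. RAD54L, a motor protein that drives strand invasion, stood at 30.4, 35.2 and 37.4 CPM in shRBPMS libraries and at 40.4, 46.9 and 50.7 CPM in shCtrl libraries. Again no library overlapped. The log2 fold change was -0.42 (adjusted p = 0.00510 in the blocked fit, 0.213 in the fit of group alone), with -0.41 inside set 1 and -0.43 inside set 2. XRCC2, the partner of RAD51D, averaged 63.3 ± 22.1 CPM in shRBPMS and 75.8 ± 18.0 CPM in shCtrl (SD, n = 3 each), with a log2 fold change of -0.29 in the blocked fit (adjusted p = 0.0292). XRCC2 did not pass in the fit of group alone (adjusted p = 0.742) or in the summed fit (0.210). RAD51C, a subunit shared by the complexes of RAD51D and XRCC3, was not called after knockdown, with means of 40.4 CPM in shRBPMS and 41.9 CPM in shCtrl. With RB98#, RAD51C stood at 33.8 and 31.8 CPM, against 39.5 and 39.2 CPM with DMSO. Its RB98# libraries were both lower (log2 -0.26, adjusted p = 0.0300), but the call was lost with DESeq2 (adjusted p = 0.111) and without DMSO replicate 1, DMSO replicate 2 or RB98# replicate 2 (0.201, 0.174 and 0.0586).

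XRCC3, the partner of RAD51C, and RAD51B, which acts in a complex with RAD51C, were called in neither experiment. XRCC3 stood at 13.9, 32.9 and 31.8 CPM in shRBPMS libraries and at 14.8, 32.0 and 33.0 CPM in shCtrl libraries. Replicate 1 was the low one in both groups. RAD51B was the least counted member, at 1.84 to 3.41 CPM in shRBPMS and 2.58 to 3.08 CPM in shCtrl. RAD51AP1, RAD54L and XRCC2 were not called with RB98#, with log2 fold changes of -0.19, -0.05 and -0.08. XRCC3 shared 76.7% of its exon bases with KLC1 on the opposite strand in GENCODE 29, and RAD54L shared 25.1% with LRRC41. The strand setting of the counting is not stated, so reads of such pairs cannot be told apart.

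**Figure D3:**
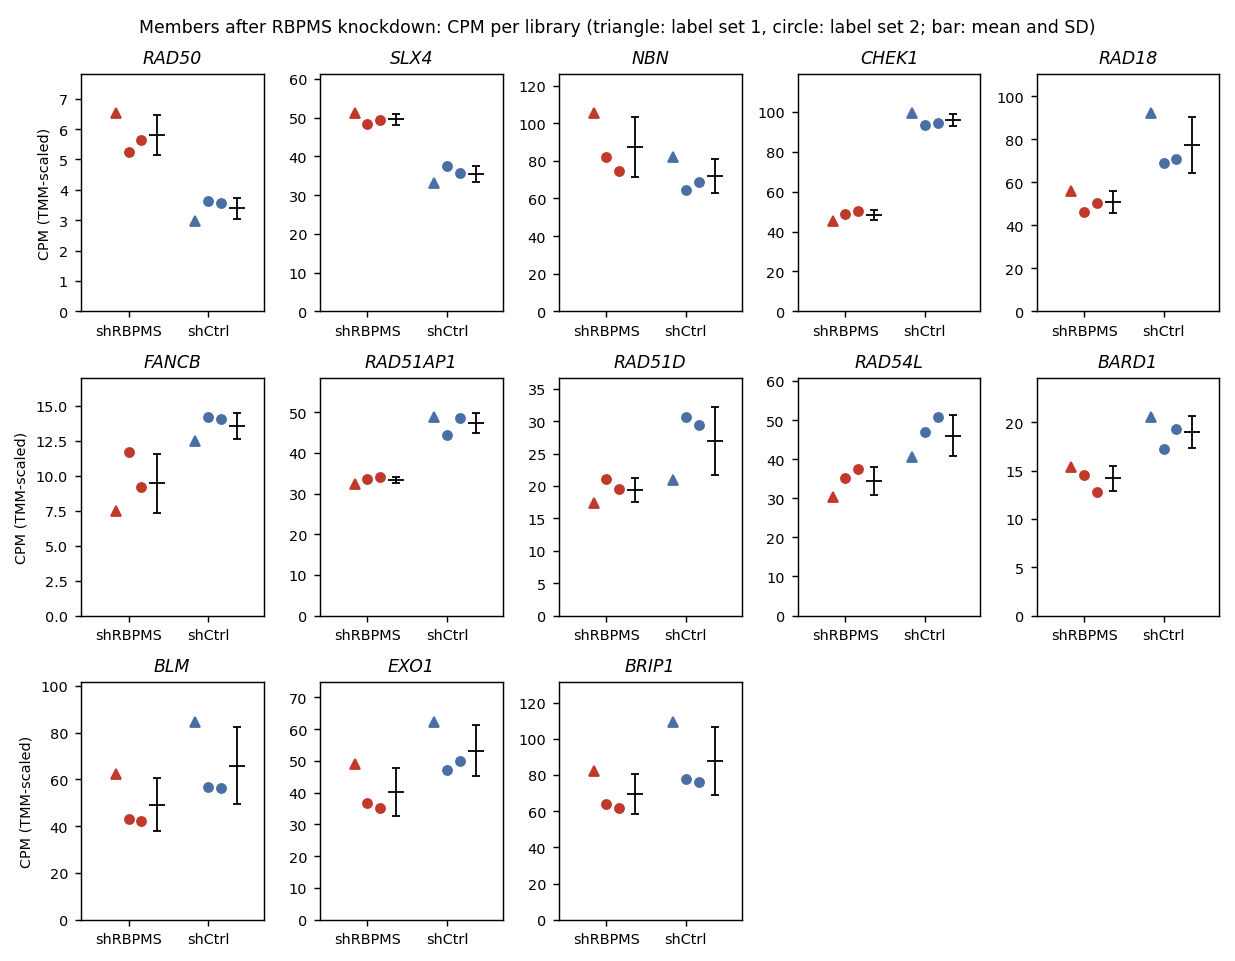
CPM of the 13 members with full values for the knockdown, 1 point per library, shRBPMS left and shCtrl right, with the mean and SD beside the points; triangles are label set 1, circles label set 2, and the y axis starts at 0. CHEK1, RAD51AP1 and SLX4 stand apart without overlap, whereas BLM, EXO1 and BRIP1 overlap through the high replicate 1 of shRBPMS.

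Resection and dissolution genes moved both ways after knockdown, with 2 of 6 up and 3 down in the blocked fit. Over all genes, 13.3% rose and 14.8% fell in that fit. RAD50 (chr5:132556019-132646344 on the plus strand), an arm of the complex that holds broken ends, stood at 6.52, 5.23 and 5.65 CPM in shRBPMS libraries and at 2.99, 3.62 and 3.57 CPM in shCtrl libraries. All shRBPMS libraries were higher. RAD50 rose by 0.76 in the blocked fit (SE 0.17, adjusted p = 0.0167; 0.101 in the fit of group alone), with 1.13 inside set 1 and 0.60 inside set 2. With RB98#, RAD50 stood at 39.1 and 42.3 CPM, against 51.7 and 51.0 CPM with DMSO, and fell (log2 -0.34, adjusted p = 0.00401). That call was lost without DMSO replicate 1 (adjusted p = 0.0659). The difference of both effects was -1.12 (adjusted p = 0.0128 in the fit of group alone, 0.00150 in the blocked fit). The 2 tables counted this gene at very different levels, since its mean in shCtrl was 0.0661 of its mean with DMSO. In GENCODE 29, 79.7% of the RAD50 exon bases are shared with the same-strand gene model AC116366.3, which had no row in either table, so the knockdown value of RAD50 is uncertain.

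NBN, the subunit that recruits ATM, stood at 105, 82.0 and 74.7 CPM in shRBPMS libraries and at 82.0, 64.7 and 69.0 CPM in shCtrl libraries. Each shRBPMS library was above the controls of its own set, but the groups overlapped. NBN rose by 0.27 in the blocked fit (adjusted p = 0.0311), against 0.497 in the fit of group alone, with 0.36 inside set 1 and 0.23 inside set 2. The blocked call was lost in the summed fit (adjusted p = 0.127) and without replicate 2 or replicate 3 of both groups (0.217 and 0.0632). MRE11, the nuclease of the same complex, averaged 52.4 ± 3.10 CPM in shRBPMS and 65.6 ± 5.79 CPM in shCtrl (SD, n = 3 each). Its log2 fold change was -0.32 (adjusted p = 0.0128 in the blocked fit, 0.258 in the fit of group alone and 0.0927 in the summed fit). BLM, a helicase that dissolves joined DNA, stood at 62.4, 43.2 and 42.0 CPM in shRBPMS libraries and at 84.7, 56.7 and 56.2 CPM in shCtrl libraries. Replicate 1 was high in both groups, and the drop inside each set was alike (-0.44 in set 1 and -0.41 in set 2). The blocked log2 fold change was -0.42 (adjusted p = 0.00429; 0.443 in the fit of group alone). EXO1, the exonuclease of long-range resection, stood at 49.0, 36.8 and 35.1 CPM in shRBPMS libraries and at 62.4, 47.2 and 50.1 CPM in shCtrl libraries. It too was lower within each set (blocked log2 -0.41, adjusted p = 0.00718; 0.344 in the fit of group alone), at -0.35 in set 1 and -0.44 in set 2. The EXO1 call was lost in the summed fit (adjusted p = 0.0528) and without replicate 3 of both groups (0.0760). RBBP8, which starts resection, was called in neither experiment, with means of 77.9 CPM in shRBPMS and 74.6 CPM in shCtrl. MRE11, NBN, EXO1 and BLM were not called with RB98#, with log2 fold changes between -0.13 and 0.05.

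In the Fanconi core complex and its helpers, 3 of 9 members fell in the blocked knockdown fit and 2 fell with RB98#. Over all genes the shares that fell were 14.8% and 17.3%. FANCB, a scaffold of the catalytic module, stood at 7.46, 11.7 and 9.19 CPM in shRBPMS libraries and at 12.4, 14.2 and 14.0 CPM in shCtrl libraries. The groups did not overlap. FANCB fell by 0.53 in the blocked fit (SE 0.12, adjusted p = 0.0183; 0.255 in the fit of group alone), with -0.74 inside set 1 and -0.44 inside set 2. That call was lost without replicate 3 of both groups (adjusted p = 0.0719). UBE2T, the ubiquitin-conjugating enzyme of the pathway, averaged 32.0 ± 3.27 CPM in shRBPMS and 39.9 ± 2.00 CPM in shCtrl (SD, n = 3 each) and fell by 0.32 (blocked adjusted p = 0.0165). FANCL, the ligase, averaged 27.0 ± 2.78 CPM in shRBPMS and 32.3 ± 3.96 CPM in shCtrl and fell by 0.25 (blocked adjusted p = 0.0367). Neither passed in the fit of group alone (adjusted p = 0.292 for UBE2T and 0.473 for FANCL) or in the summed fit (0.131 and 0.196). FANCL shared 18.7% of its exon bases with VRK2 on the opposite strand, and its mean in shCtrl was 0.323 of that with DMSO. In the compound experiment, the deposited values per length implied a FANCL length 15.8 times its exon length. The knockdown value and the RB98# value of FANCL are therefore both uncertain. Their substrate FANCD2, which is not among the 34, averaged 93.9 ± 2.67 CPM in shRBPMS and 139.8 ± 5.89 CPM in shCtrl and fell by 0.57 (blocked adjusted p = 0.00119; 0.0529 in the fit of group alone). USP1, which removes that ubiquitin, averaged 140 CPM in shRBPMS and 170 CPM in shCtrl and fell by 0.28 (blocked adjusted p = 0.0176; 0.259 in the fit of group alone).

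FANCF, an adaptor of the core complex, stood at 6.14 and 6.79 CPM with RB98# and at 10.3 and 9.35 CPM with DMSO. Both RB98# libraries were lower (log2 -0.60, SE 0.17, adjusted p = 0.00811), but the call was lost with DESeq2 (adjusted p = 0.0607) and without DMSO replicate 1 (0.0939). After knockdown FANCF stood at 10.8, 9.17 and 8.58 CPM in shRBPMS libraries and at 7.22, 6.42 and 7.85 CPM in shCtrl libraries. Those groups did not overlap, yet FANCF did not pass the test (blocked log2 0.41, adjusted p = 0.0629). Both effects of FANCF differed by -1.03 (adjusted p = 0.0320 in the fit of group alone, 0.00703 in the blocked fit). FANCG, another core subunit, stood at 42.4 and 42.0 CPM with RB98# and at 55.4 and 54.2 CPM with DMSO. It was lower in both RB98# libraries (log2 -0.38, SE 0.09, adjusted p = 0.00120), and the call held without any 1 library. FANCG had a mean of only 4.96 CPM in shRBPMS and 5.54 CPM in shCtrl, which was 0.101 of the DMSO level, with no exon overlap in GENCODE 29 beside it. The other core members, FANCA, FANCC, FANCE and the helicase FANCM, were called in neither experiment, with blocked log2 fold changes between -0.26 and 0.08 and RB98# log2 fold changes between -0.15 and 0.18. FANCA averaged 71.7 CPM in shRBPMS and 81.2 CPM in shCtrl, and 73.2 CPM with RB98# and 74.7 CPM with DMSO.

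SLX4, the scaffold that brings nucleases to a crosslink, stood at 51.1, 48.3 and 49.3 CPM in shRBPMS libraries and at 33.2, 37.4 and 35.6 CPM in shCtrl libraries. Every shRBPMS library was above every control. SLX4 rose by 0.48 (SE 0.08, adjusted p = 0.00516 in the blocked fit, 0.0946 in the fit of group alone), with 0.62 inside set 1 and 0.42 inside set 2. With RB98# it stood at 27.0 and 30.2 CPM, against 31.8 and 36.2 CPM with DMSO, and was not called (log2 -0.25, adjusted p = 0.0549). The difference of both effects was called (-0.75, adjusted p = 0.0274 in the fit of group alone). FAN1, a crosslink nuclease, was called in neither experiment, with means of 42.6 CPM in shRBPMS and 38.0 CPM in shCtrl. RAD18, the ligase that marks PCNA with ubiquitin at stalled forks, stood at 56.1, 46.0 and 50.3 CPM in shRBPMS libraries and at 92.2, 69.1 and 71.1 CPM in shCtrl libraries. The groups stood well apart, and RAD18 fell by 0.60 (SE 0.07, adjusted p = 0.00169 in the blocked fit, 0.115 in the fit of group alone), with -0.72 inside set 1 and -0.54 inside set 2. The authors' deposited table gave RAD18 a log2 fold change of -0.57 with an adjusted p of 0.0210. With RB98#, RAD18 averaged 60.7 CPM, against 66.7 CPM with DMSO, and was not called.

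How far the blocked calls depend on the 2 close replicates was examined by leaving numbers out. Without replicate 2 of both groups, that fit called 2 members higher and 8 lower, where it called 7.75% and 8.7% of all genes. Without replicate 3 it called 2 higher and 5 lower, where it called 8.84% and 9.57%. RAD50, SLX4, CHEK1, RAD18, RAD51AP1, RAD54L and BLM kept their call without replicate 2, without replicate 3 and in the summed fit. The RAD50 value stays uncertain, since 79.7% of its exon bases are shared with AC116366.3. RAD54L shares 25.1% of its exon bases with LRRC41 on the opposite strand. All 18 members called in the blocked fit kept their sign in each of these 3 fits. These fits use libraries of the blocked fit again, so the kept signs are no separate evidence. The authors' deposited table called 1 member up (RAD50) and 2 down (CHEK1 and RAD18) after knockdown, where it called 4.74% of all genes up and 6.6% down. With RB98# it called 3 up (BARD1, BRCA2 and ATM) and 5 down (FANCG, BRCA1, PALB2, RAD51D and RAD50), where it called 13.7% up and 8.44% down.

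Many members differed between the label sets in both groups. The log2 CPM of set 1 minus set 2 had the same sign in shRBPMS and shCtrl for 29 of 34 members, 19 of them higher in set 1 and 10 lower. For 9 members the distance was over 0.5 in both groups. Over all 16215 genes, the deviations of replicate 1 from its group mean correlated at 0.803 between the groups. A shift between the sets was thus not particular to the members. BRCA2 was higher in set 1 by 1.16 in shRBPMS and 1.00 in shCtrl. XRCC3 was lower in set 1, at -1.22 in shRBPMS and -1.14 in shCtrl, and FANCE, FANCG and FANCA were lower too. The mitochondrial share differed between the sets in the same libraries, and its part in these distances was not tested. Inside the sets, the knockdown difference had 1 sign in both for 27 members, lower in shRBPMS for 19 and higher for 8, and opposite signs for 7. None of these counts of signs and distances was made over all genes. An interaction of knockdown and label set was called for 2 of 34 members, both with a larger value in set 1, where 9.01% of all genes were called in that direction and 8.25% in the other.

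**Figure D4:**
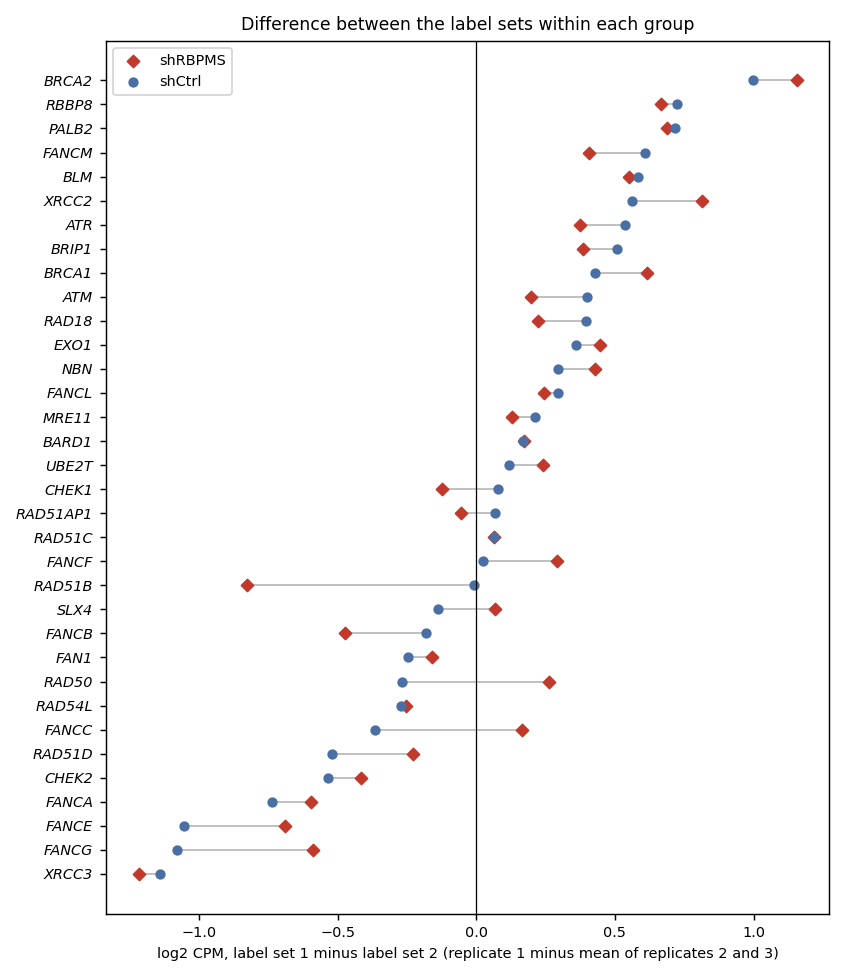
Difference in log2 CPM between label set 1 (replicate 1) and label set 2 (mean of replicates 2 and 3) for each member, within shRBPMS (red diamonds) and within shCtrl (blue circles). Most pairs lie on the same side of 0, from BRCA2 at 1.16 and 1.00 to XRCC3 at -1.22 and -1.14.

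Levels between genes can be set side by side in the compound experiment, whose deposited table holds values per length. The header does not name their unit. They match FPKM, fragments per kilobase of transcript and per 1e6 fragments, in that the gene length they imply lay within 5% of the GENCODE 29 exon length for 17 of the 34 members. It was over 1.5 times that length for 9 members, and for FANCL by 15.8 times, so the order of those genes is uncertain. The median member stood at 5.31 FPKM with RB98# and 5.56 FPKM with DMSO. UBE2T was highest, at 23.7 and 24.3 FPKM with RB98# and 27.0 and 27.2 FPKM with DMSO. CHEK1 stood at 16.7 and 15.1 FPKM with RB98# and 14.6 and 14.8 FPKM with DMSO. RAD51AP1 stood at 15.04 and 12.6 FPKM with RB98# and at 16.7 and 17.2 FPKM with DMSO, below CHEK1 in both libraries with RB98# and above CHEK1 in both with DMSO. RAD51B was lowest, at 0.413 and 0.308 FPKM with RB98# and 0.254 and 0.365 FPKM with DMSO. BRCA2 ranked 14 among the 34 with RB98# and 21 with DMSO, PALB2 ranked 18 with RB98# and 13 with DMSO, and BARD1 ranked 23 with RB98# and 29 with DMSO.

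**Figure D5:**
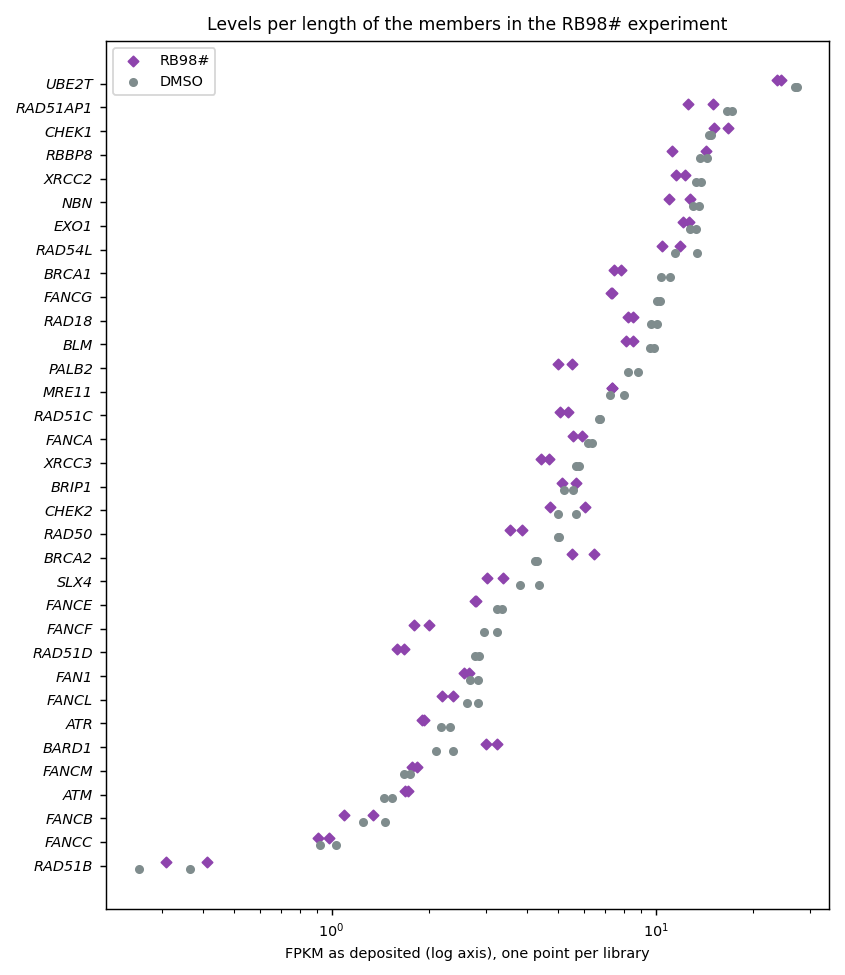
Deposited values per length of the 34 members, read as FPKM, on a log axis, 1 point per library, with RB98# as purple diamonds above DMSO as grey circles and genes in the order of the DMSO mean. UBE2T stands near 24.0 FPKM with RB98# and 27.1 with DMSO, RAD51B near 0.361 and 0.310, and BRCA2, BARD1, PALB2 and RAD51D show gaps between the groups.

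Other genes of the same pathways were set beside the members. Of 56 further Fanconi and recombination genes in the knockdown table, the blocked fit called 6 higher and 19 lower, at a median log2 fold change of -0.12, and the fit of group alone called 1, H2AX. Over all genes the blocked fit called 13.3% higher and 14.8% lower, and the fit of group alone 0.629% and 1.34%. These shares hold for the other knockdown lists here too. H2AX, the histone that is phosphorylated at breaks, averaged 166 ± 6.09 CPM in shRBPMS and 83.1 ± 9.51 CPM in shCtrl (SD, n = 3 each). It rose by 1.00 (adjusted p = 0.0258 in the fit of group alone, 0.000675 in the blocked fit). DNA2, a resection nuclease, fell by 0.61 in the blocked fit (52.9 CPM in shRBPMS and 81.2 CPM in shCtrl, adjusted p = 0.00210; 0.0629 in the fit of group alone). Of 25 replication fork genes, 0 were higher and 23 lower past the threshold of the blocked fit, at a median of -0.37, and the fit of group alone called 0, with 24 of 25 lower. GINS2, a subunit of the replicative helicase, averaged 38.0 CPM in shRBPMS and 57.4 CPM in shCtrl (blocked log2 -0.59, adjusted p = 0.00215; 0.234 in the fit of group alone). Of 18 mitosis genes, the blocked fit called 0 higher and 11 lower, at a median of -0.27, and the fit of group alone called 0, with 18 of 18 lower. Members, replication genes and mitosis genes were thus lower in the same libraries, and the part of cell cycle stage in the members' change was not tested. Of 10 end joining genes, the blocked fit called 3 higher and 1 lower and the fit of group alone 0. POLM, a polymerase of end joining, averaged 21.5 CPM in shRBPMS and 11.9 CPM in shCtrl (blocked log2 0.88, adjusted p = 0.00483; 0.110 in the fit of group alone).

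With RB98#, 6 of 57 further Fanconi and recombination genes rose and 9 fell, with a median of -0.05. The shares of all genes called, 20.5% up and 17.3% down, hold for this list and for the other lists here. MUS81, a nuclease that cuts branched DNA, averaged 56.3 ± 4.73 CPM with RB98# and 37.3 ± 2.63 CPM with DMSO (SD, n = 2 each; log2 0.59, adjusted p = 1.87e-05). FAAP100, the partner of FANCB and FANCL, averaged 36.2 CPM with RB98# and 56.9 CPM with DMSO (log2 -0.66, adjusted p = 9.46e-06). FANCD2 was not called with RB98#, with means of 149.9 CPM with RB98# and 143 CPM with DMSO. Of 25 replication fork genes, 0 rose and 11 fell, with a median of -0.12. GINS2 fell in this experiment too, with 41.6 CPM with RB98# and 59.9 CPM with DMSO (log2 -0.53, adjusted p = 2.89e-05). Of 18 mitosis genes, 3 rose and 1 fell. Of 10 end joining genes, 1 rose and 2 fell, among them PAXX, a factor that binds the Ku proteins, with 17.9 CPM with RB98# and 25.8 CPM with DMSO (log2 -0.53, adjusted p = 0.00143).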

How the data were processed

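RNA-seq of Kasumi-1 cells gave 10 libraries in 2 tables. Per the submitters' processing notes, which give no role or order, the tools were DESeq2 1.32.0, featureCounts 2.0.1, HISAT2 2.2.1, fastp 0.22.0 and StringTie, on the build hg38/GRCh38. Per the file headers, the columns tested hold raw counts per gene, deposited without normalization. A second column per knockdown library holds a signal that the authors adjusted in a way not given in the sources used here, and it served as an alternative only (log2 after adding 1). The deposited FPKM columns of the RB98# table carry no unit in their header and were identified from the counts and gene lengths. The log2 fold changes and adjusted p-values quoted as the authors' come from their deposited tables. The smallest summed count of a listed gene was 27 in the knockdown table and 50 in the RB98# table, and 112 repeated lines of the RB98# table were dropped.

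Counts were tested with the two-sided quasi-likelihood F test of edgeR 4.0.16 in R 4.3.3, with TMM factors, the filterByExpr filter (a count of 10, a total of 15) and Benjamini-Hochberg adjustment at 0.05 over all genes. Every adjusted p in the text is from this test unless another is named. The design was group alone in each experiment and 4 groups for the difference of effects. Same-numbered knockdown libraries deviated together (correlation 0.803, 0.669 and 0.688 over 16215 genes), so a blocked fit, which adds a term for the replicate number, is given beside it. Replicates 2 and 3 crossed gave 0.663 and 0.670, so the shared deviation follows the label set. In the RB98# experiment the correlation was -0.0535 and no block was used. Alternatives were other size factors, no filter, DESeq2 1.42.0, limma 3.58.1 and each library left out. The test was also run on simulated counts with the same spread for every gene and no label set effect. That setting is simpler than these data and does not cover the distance between the label sets. No per-library column was left unused. Coordinates are those of GENCODE 29.

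The members and gene lists were chosen with earlier results of these data known. Full values are given for members past 0.05 in either knockdown fit or with RB98#, the 10 largest changes per direction, and for up to 4 genes of the other lists per comparison. RBPMS, FANCD2 and USP1 were named as context.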

Additional observations from a re-analysis of the deposited data

Results flagged for a closer look

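The knockdown effect differed between the label sets for 2 members by the test of the interaction of knockdown and label set. For FANCC, a core complex subunit, the effect in set 1 minus that in set 2 was 0.53 on the log2 scale (edgeR adjusted p = 0.0311), with a knockdown difference of 0.13 inside set 1 and -0.40 inside set 2. FANCC stood at 13.9, 12.6 and 12.2 CPM in shRBPMS libraries and at 12.7, 16.9 and 15.8 CPM in shCtrl libraries. For XRCC2, the partner of RAD51D, the same quantity was 0.25 (adjusted p = 0.0341), with -0.12 inside set 1 and -0.37 inside set 2. XRCC2 stood at 88.8, 51.6 and 49.4 CPM in shRBPMS libraries and at 96.5, 66.0 and 64.9 CPM in shCtrl libraries. Set 1 held 1 library per group, so both interaction values rest on single libraries there, and the variation of set 1 was taken from set 2. The same test called 9.01% of all genes with a higher and 8.25% with a lower effect in set 1.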

How the results depend on the processing

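The number of members called after knockdown depended on the design. In the fit of group alone 320 genes were called, 0 members up and 1 down. The replicate block gave 4549 genes, 3 members up and 15 down. The label set as a covariate gave 5810, 5 and 16, and set 2 alone 6830, 5 and 17. DESeq2 gave 1339, 2 and 3, and the authors' adjusted values 2309, 1 and 2. Leaving out 1 library moved the fit of group alone to between 0 and 322 genes, 0 to 0 members up and 0 to 1 down. The count of genes was 2 without shCtrl replicate 2, 37 without shRBPMS replicate 1, and 0 without shCtrl replicate 3, shRBPMS replicate 2 or shRBPMS replicate 3, and CHEK1 was lost in each of these 5. With the replicate block, set 2 alone gave 7106, 5 and 18, other size factors 4611, 3 and 15, library totals 4569, 4 and 13, no filter 4610, 3 and 15, DESeq2 3720, 3 and 13, and limma 4654, 3 and 15. The block without replicate 2 of both groups gave 2657, 2 and 8, and without replicate 3 2975, 2 and 5. Summing replicates 2 and 3 gave 2681, 2 and 6. Library totals and DESeq2 in the block lost FANCL and BRCA2. All these block and sum settings were chosen after seeing the data, except the block itself, the label set and set 2 alone.

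With RB98#, 4659 genes, 4 members up and 7 down were called. Leaving out 1 library gave 2731 to 5028 genes, 2 to 5 members up and 4 to 11 down. It was 2843 genes with 4 members down without DMSO replicate 1, 2731 genes with 2 members up without DMSO replicate 2, and 11 members down without RB98# replicate 1. Library totals gave 2 up and 14 down, with the median of all genes at -0.10 in place of 0.00. The replicate block changed no member call with RB98# (4430 genes, 4 up and 7 down). The difference of effects was called for 2 members higher and 3 lower with RB98#, and for 8 and 6 with the replicate block. With RB98#, the 4 members that rose and the 7 that fell kept their sign under every alternative run. The groups overlapped for none of these members, so leaving out 1 library could hardly change a sign. The other settings used the same libraries again, so the kept signs are no separate evidence. After knockdown, signs were less stable among members that were not called. RAD51B, for example, had a log2 fold change of -0.02 in the fit of group alone and 0.20 in set 2 alone.

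Groups of 2 and 3 libraries limit the precision of the values. Mean levels below 10 CPM in the knockdown limit it further for RAD50, FANCF, FANCG and RAD51B. The same holds for FANCB in shRBPMS, at a mean of 9.44 CPM. The causes of the changes between settings were not tested.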
